A study of Mus musculus with 8 samples.

Results

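The naive pluripotency factors described here are 10 genes, Nanog, Klf2, Klf4, Klf5, Esrrb, Tfcp2l1, Zfp42, Prdm14, Tcl1 and Nr0b1. They were chosen by name as regulators of the naive state, with earlier results of these data known. Each was read by 1 probe set that names it alone, so that all 10 entered the test among 19938 genes measured in this way. Their expression was compared between 4 arrays of E14 mouse ESCs that stably carried an shRNA against Kdm2b (shKdm2b, passages 27 to 30) and 4 arrays of E14 ESCs that stably carried a scrambled shRNA (shScr, passages 28 to 31). Both groups were infected with a pLKO.1puro lentivirus, selected with puromycin and grown on gelatine without feeders in medium with LIF. Each shKdm2b array was 1 passage below the shScr array of the same replicate number. The labels call the replicates biologically independent, but each group holds 1 shRNA sequence and the sources name no line derived anew for each replicate. What the p-values measure is thus the spread among these samples, which may leave out that between shRNAs and between infections. The 21 bases of the shRNAs, which set the groups apart, are printed 5′ to 3′ as the labels give them.
shKdm2b: cgctgtggaaatatctgtcat
shScr: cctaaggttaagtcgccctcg

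KDM2B is a CpG island binding protein that brings a variant polycomb repressive complex 1 to chromatin. The naive state is that of the pre-implantation epiblast, which mouse ESCs keep in culture when LIF signals through STAT3. Its factors bind each other's genes, act together with OCT4 and SOX2, and are shut down when the epiblast becomes formative and then primed, while genes such as Fgf5, Pou3f1 and Dnmt3b come on. ESCs in medium with serum and LIF are known to be mixed, with cells that move between high and low levels of several of these factors. The arrays read the pooled RNA of each culture, in which more cells of a kind and more RNA per cell cannot be told apart.

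Kdm2b itself lay at a log2 signal of 8.68 to 9.45 on the shKdm2b arrays, against 10.74 to 11.34 on the shScr arrays (log2 fold change -2.05, standard error, SE, 0.18, limma adjusted p = 0.000891). Of 6 ESC markers (Pou5f1 and Sox2 among them) none met the gene rule given below, and their mean log2 signal was 13.46 to 13.50 on the shKdm2b arrays and 13.42 to 13.49 on the shScr arrays. Markers of other cell types were also followed. The trophoblast list averaged 8.49 to 8.66 on the shKdm2b arrays and 8.97 on shScr replicate 1, against at most 8.47 on the other shScr arrays, and the fibroblast list averaged 7.99 to 8.24 on the shKdm2b arrays and 8.33 on shScr replicate 1, against at most 8.05 on the other shScr arrays. The primitive endoderm list ranged from 8.74 to 9.02 on the shKdm2b arrays and from 8.73 to 8.89 on the shScr arrays, and the neural list from 8.97 to 9.10 on the shKdm2b arrays and from 9.18 to 9.45 on the shScr arrays. By the gene rule 1 of 7 fibroblast markers rose (Thy1) and 1 of 5 neural markers fell (Pax6), while none of the 7 primitive endoderm or 6 trophoblast markers met it. Blocked on replicate number, the fit also called Eomes of the trophoblast list higher and Nes of the neural list lower (log2 fold changes 0.77 and -0.78, limma adjusted p = 0.0491 and 0.0376), and 4 primitive endoderm markers were higher at an adjusted p under 0.05 without meeting the fold limit. Of the 7 primitive endoderm markers, 2 had a log2 fold change below 0, among them Dab2 at -0.95 (the more significant of 2 probe sets). The limma adjusted p of Dab2 was 0.0525, and 0.0382 in the blocked fit, where no majority of its probe sets passed. These arrays give no value of 0, and the part of other cells in the results was not tested. For several named genes whose result turned on shScr replicate 1, the value without it is given.

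Most naive factors had a slightly higher mean signal in the knockdown cells, and Tcl1 and Prdm14 were the members whose change met the rule used in the study's methods. By that rule a gene changed when most of its own probe sets had a Benjamini-Hochberg adjusted p under 0.05 in limma and the most significant differed at least 1.5-fold. Of the 10 factors 2 rose, none fell and 8 did not meet the rule, while 1.42% of all genes rose and 1.43% fell by it (2.85% in either direction, and 2.19% rose among genes brighter than the median probe set, as all 10 factors are). Blocking on the replicate number left the same 2 factors called as higher, against 1.59% of all genes. Without the fold limit, again 2 factors were higher and none was lower at an adjusted p under 0.05 in limma, against 5.75% and 4.55% of all genes (10.3% in either direction). At an unadjusted p under 0.05, 6 of the 10 factors were higher and 1 was lower, against 16.8% and 13.6% of all genes (30.4% in either direction). The log2 fold change was above 0 for 9 of the 10 factors, against 61.7% of all genes, and its median was 0.24, against 0.05 over all genes. All 4 shKdm2b arrays lay above all 4 shScr arrays for 5 factors (Tcl1, Prdm14, Klf4, Klf5 and Esrrb) and below them for none, against 11.3% and 8.78% of all genes (20.1% in either direction). The 9 factors kept their direction, and Nr0b1 its opposite one, under every alternative that was run. Where each array was centred on its median, however, only Tcl1 and Prdm14 of these 5 still had groups that did not overlap. Because the factors were chosen with earlier results of these data known, the shares of all genes beside these counts describe and do not test them.

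**Figure D1:**
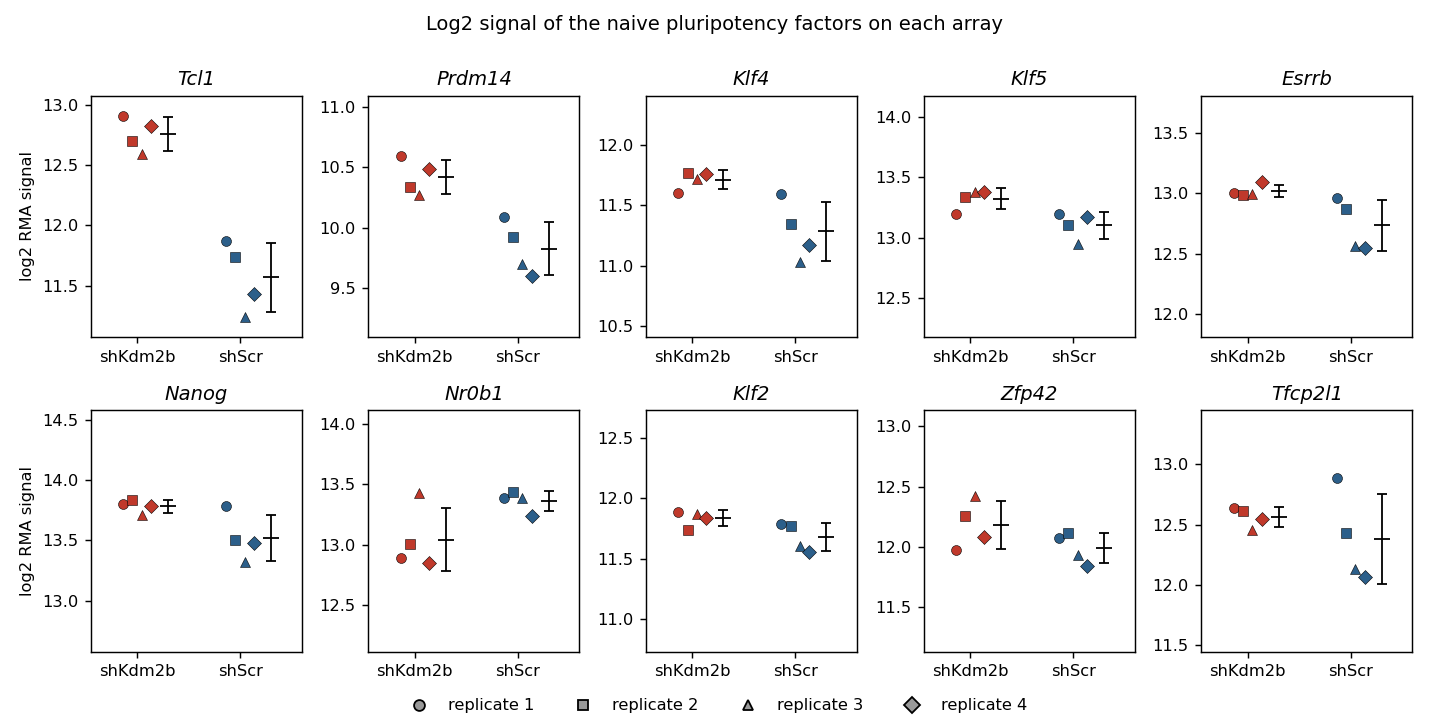
Log2 RMA signal (y axis, each panel spanning 2 log2 units) of the 10 naive factors on the 4 shKdm2b arrays (red, left) and the 4 shScr arrays (blue, right). Symbols mark the replicate number, and bars beside the points give each group's mean with its SD (n = 4 arrays). For Tcl1 the shKdm2b arrays sit between 12.59 and 12.91, all above the shScr arrays at 11.24 to 11.87.

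Tcl1 encodes a small cofactor of the kinase AKT that supports ESC proliferation, and its gene is a target of OCT4. Its log2 signal was 12.91, 12.69, 12.59 and 12.82 in shKdm2b replicates 1 to 4, and 11.87, 11.74, 11.24 and 11.43 in shScr replicates 1 to 4. The lowest knockdown array thus stood above the highest control array, and the shScr arrays were spread more widely (12.75 ± 0.14 in shKdm2b and 11.57 ± 0.29 in shScr, SD, n = 4 arrays each). Tcl1 rose 2.28-fold, or by 1.19 on the log2 scale (SE 0.14, 95% confidence interval, CI, 0.869 to 1.505, limma adjusted p = 0.00346). It met the gene rule without any 1 of the 8 arrays, with a log2 fold change of 1.08 to 1.29. In a fit of passages 28 to 30 alone, with passage as a block, its log2 fold change was 1.09 and its limma adjusted p = 0.0748. The 250 bases before its annotated start (RefSeq, GRCm38.p6) are printed because their CpG content is compared with that of Klf4 further on, 5′ to 3′ on the strand of the gene, with every CpG in capitals.
Tcl1, chr12:105222738-105222987, minus strand: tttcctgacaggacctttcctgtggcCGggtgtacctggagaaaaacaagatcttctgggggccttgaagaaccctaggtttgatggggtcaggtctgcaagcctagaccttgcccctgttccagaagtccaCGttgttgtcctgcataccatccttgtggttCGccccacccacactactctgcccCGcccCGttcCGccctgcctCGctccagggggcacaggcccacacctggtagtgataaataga

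Prdm14 encodes a zinc finger protein that represses FGF signalling genes and de novo DNA methyltransferase genes in naive cells. Its log2 signal was 10.59, 10.34, 10.27 and 10.48 in shKdm2b replicates 1 to 4, and 10.09, 9.92, 9.70 and 9.60 in shScr replicates 1 to 4. No knockdown array fell into the range of the control arrays, and in both groups replicate 1 was the highest. Prdm14 rose 1.51-fold, or by 0.59 on the log2 scale (SE 0.12, 95% CI 0.32 to 0.86, limma adjusted p = 0.0226), and so passed the fold limit, 0.58 on the log2 scale, only narrowly. The call was lost without shKdm2b replicate 1, 2 or 4 or shScr replicate 2, 3 or 4, where the log2 fold change was 0.52 to 0.63 and limma adjusted p = 0.0478 to 0.0687. It was also lost in the fits on passage (log2 fold change 0.46 and adjusted p = 0.181 for passages 28 to 30 alone, and 0.49 and adjusted p = 0.0407 with passage as a covariate, from limma) and, by the fold alone, with centred arrays (0.57).

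The 3 Krüppel-like factors of the naive network all had slightly higher means on the knockdown arrays, and none met the rule. KLF2, KLF4 and KLF5 are zinc finger proteins that bind CACCC and GC-rich sequences and can stand in for each other in ESCs, and Klf4 is induced by STAT3. The log2 signal of Klf4 was 11.60, 11.77, 11.72 and 11.76 in shKdm2b replicates 1 to 4, and 11.59, 11.34, 11.03 and 11.17 in shScr replicates 1 to 4. The groups were thus separated only narrowly, with shKdm2b replicate 1 just above shScr replicate 1. The log2 fold change of Klf4 was 0.43 (SE 0.12, 95% CI 0.17 to 0.69, limma adjusted p = 0.0558), and without shScr replicate 1 it was 0.53 with limma adjusted p = 0.0159, still short of 1.5-fold. Without any other single array the limma adjusted p of Klf4 was 0.0676 to 0.141. The window before its start is printed as for Tcl1, with every CpG in capitals.
Klf4, chr4:55532476-55532725, minus strand: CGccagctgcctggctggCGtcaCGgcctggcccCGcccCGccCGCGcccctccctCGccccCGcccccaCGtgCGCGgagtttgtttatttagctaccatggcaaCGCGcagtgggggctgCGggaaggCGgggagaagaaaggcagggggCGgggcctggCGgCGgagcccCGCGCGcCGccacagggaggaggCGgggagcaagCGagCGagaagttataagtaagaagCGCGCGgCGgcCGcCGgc
Klf5 lay between 13.20 and 13.38 in shKdm2b and between 12.94 and 13.19 in shScr (log2 fold change 0.22, SE 0.07, limma adjusted p = 0.103). Klf2 lay between 11.74 and 11.89 in shKdm2b and between 11.56 and 11.79 in shScr, with shKdm2b replicate 2 inside the control range (log2 fold change 0.15, SE 0.07, 95% CI -0.01 to 0.32, limma adjusted p = 0.210).

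Whether the 3 factors changed by different amounts was tested on the difference of their log2 values within each array. The change of Klf4 exceeded that of Klf2 by 0.27 and that of Klf5 by 0.21 (both adjusted p = 0.129 over the 3 pairs, two-sided exact permutation test of the 8 arrays). Klf5 exceeded Klf2 by 0.07 (adjusted p = 0.514, exact permutation test). The smallest p that 4 arrays against 4 can give is 0.0286 before adjustment, and 0.0857 after it for a pair that stands alone among the 3 in this exact test, so that no single pair could have passed by itself.

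**Figure D2:**
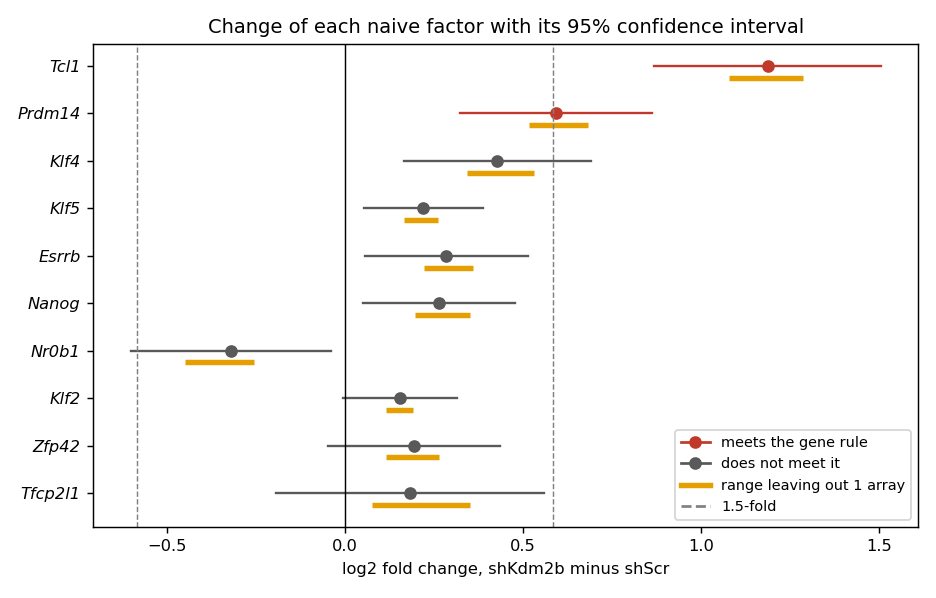
Log2 fold change (x axis, shKdm2b minus shScr) of the 10 naive factors with the 95% CI of the limma fit, in red for those that met the gene rule. Orange bars give the lowest and highest value when 1 array is left out, and dashed lines mark 1.5-fold. Tcl1 lies at 1.19 and Prdm14 at 0.59, just past the line, while Nr0b1 lies at -0.32.

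Nanog, Esrrb and Tfcp2l1 form the part of the network that holds ESCs in self-renewal, and none of them met the rule. NANOG is a homeodomain protein, ESRRB an orphan nuclear receptor encoded by a target gene of NANOG, and TFCP2L1 a CP2 family factor induced by LIF and STAT3. The log2 signal of Nanog was 13.80, 13.84, 13.71 and 13.78 in shKdm2b replicates 1 to 4, and 13.78, 13.50, 13.32 and 13.48 in shScr replicates 1 to 4. The knockdown arrays sat close together and shScr replicate 1 stood among them, above the other controls. The log2 fold change of Nanog was 0.26 (SE 0.09, 95% CI 0.05 to 0.48, limma adjusted p = 0.121), and without shScr replicate 1 it was 0.35 with limma adjusted p = 0.0260, still short of 1.5-fold. Without any other single array the limma adjusted p of Nanog was 0.102 to 0.271. The window before the first of its starts is shown because it holds the well known element at which OCT4 and SOX2 bind side by side. Its capitals mark the letters ATGCAAA, the octamer part that POU factors read (here on the reverse strand as TTTGCAT), and ACAATG, a SOX core.
Nanog, chr6:122707239-122707488, plus strand: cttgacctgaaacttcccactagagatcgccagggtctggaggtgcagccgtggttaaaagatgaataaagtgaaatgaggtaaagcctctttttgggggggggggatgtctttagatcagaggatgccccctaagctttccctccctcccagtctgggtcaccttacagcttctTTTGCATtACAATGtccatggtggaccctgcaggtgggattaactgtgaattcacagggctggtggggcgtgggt

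For Esrrb the log2 signal was 13.00, 12.99, 12.99 and 13.10 in shKdm2b replicates 1 to 4, and 12.96, 12.87, 12.56 and 12.55 in shScr replicates 1 to 4. The groups did not overlap, but shScr replicates 1 and 2 came near the knockdown arrays and replicates 3 and 4 lay well below (log2 fold change 0.28, SE 0.10, limma adjusted p = 0.120). Tfcp2l1 had a log2 signal of 12.64, 12.61, 12.45 and 12.54 in shKdm2b replicates 1 to 4, and 12.89, 12.43, 12.14 and 12.06 in shScr replicates 1 to 4. The control arrays of this gene ran over a range of 0.82 on the log2 scale and enclosed all knockdown arrays, which ran over 0.19. Its log2 fold change was 0.18 (SE 0.17, 95% CI -0.19 to 0.56, limma adjusted p = 0.520), and 0.35 with limma adjusted p = 0.0755 without shScr replicate 1. Without any other single array the limma adjusted p of Tfcp2l1 was 0.446 to 0.817.

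Nr0b1, also known as Dax1, was the member with a negative fold change. It encodes an orphan nuclear receptor without a classical DNA binding domain that binds OCT4 and NR5A2 and restrains their activity. Its log2 signal was 12.89, 13.01, 13.42 and 12.85 in shKdm2b replicates 1 to 4, and 13.39, 13.44, 13.39 and 13.24 in shScr replicates 1 to 4. In 3 of the 4 knockdown arrays it lay below every control array, and in shKdm2b replicate 3 it was at the level of the controls. The log2 fold change was -0.32 (SE 0.12, 95% CI -0.60 to -0.04, limma adjusted p = 0.145). Without shKdm2b replicate 3 it was -0.45 with limma adjusted p = 0.00929, still short of 1.5-fold. Without any other single array the limma adjusted p of Nr0b1 was 0.185 to 0.290.

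Zfp42, which encodes the ESC marker REX1, a zinc finger protein descended from YY1, ranged from 11.97 to 12.42 in shKdm2b and from 11.84 to 12.11 in shScr. Its groups overlapped, with shKdm2b replicates 2 and 3 above all controls (log2 fold change 0.19, SE 0.11, 95% CI -0.05 to 0.44, limma adjusted p = 0.290). For 6 of the 10 factors, the 95% CI of the change lay wholly inside 1.5-fold in either direction. These were Nanog, Esrrb, Klf2, Klf5, Zfp42 and Tfcp2l1. That of Tcl1 lay wholly beyond 1.5-fold, and those of Prdm14, Klf4 and Nr0b1 included it.

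Among the naive factors the spread lay mostly in the control arrays. In 8 of the 10 factors the SD was larger among the shScr arrays than among the shKdm2b arrays (median SD 0.0851 in shKdm2b and 0.203 in shScr), whereas this held for 36.4% of all genes (median SD 0.115 in shKdm2b and 0.0891 in shScr). The exceptions were Nr0b1 and Zfp42. Within the control group, shScr replicate 1 was the highest array for 8 of the 10 factors and replicate 2 for the other 2, while replicate 4 was the lowest for 6 and replicate 3 for 4. Among the knockdown arrays each was the highest for 2 to 4 factors. No test was made of these counts, because the factors were measured on the same 8 arrays.

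Formative and primed markers, which naive cells keep low, ran the other way among the control arrays. Of 11 such markers with a probe set of their own, 7 were highest in shScr replicate 3, and 9 were lowest in shScr replicate 1. Among the knockdown arrays, 7 of the 11 were highest in shKdm2b replicate 3 and 5 were lowest in shKdm2b replicate 1. The SD was larger among the shScr arrays for 5 of the 11 markers, against 36.4% of all genes. Dnmt3b, a de novo DNA methyltransferase gene, had a log2 signal of 11.24, 11.66, 12.06 and 11.71 in shKdm2b replicates 1 to 4, and 11.81, 12.40, 12.92 and 12.81 in shScr replicates 1 to 4. Pou3f1, a POU factor gene of the formative epiblast, had a log2 signal of 10.03, 9.91, 10.15 and 10.04 in shKdm2b replicates 1 to 4, and 10.03, 10.49, 11.39 and 11.19 in shScr replicates 1 to 4. For both genes shScr replicate 1 lay within the range of the knockdown arrays and shScr replicates 3 and 4 lay above it.

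Over all arrays the median log2 fold change of the formative and primed markers was -0.68, with 8 of 11 below 0, while 61.7% of all genes were above 0. None met the gene rule or had an adjusted p under 0.05 in limma, although 4 were lower at an unadjusted p under 0.05 (Dnmt3b, Pou3f1, Zic2 and Zic5), against 13.6% of all genes. Dnmt3b had a log2 fold change of -0.81 (SE 0.26, limma adjusted p = 0.0884) and Pou3f1 one of -0.75 (SE 0.27, limma adjusted p = 0.125). Without shScr replicate 1, 2 of the 11 met the gene rule, against 3.42% of all genes, namely Dnmt3b (log2 fold change -1.04, limma adjusted p = 0.0253) and Pou3f1 (-0.99, limma adjusted p = 0.0274), and the median of the list was -0.81. Without any other single array the limma adjusted p was 0.0523 to 0.210 for Dnmt3b and 0.124 to 0.265 for Pou3f1. When the fit was blocked on replicate number with all arrays, 4 of the 11 were called lower by the gene rule, against 1.68% of all genes. They were Dnmt3b, Lef1, Zic2 and Zic5, with limma adjusted p = 0.0103, 0.0215, 0.0286 and 0.0294, and they are named because this count was small. The block changed the call of none of the 10 naive factors. Otx2, a homeobox gene of the formative state that was picked after its values were seen, had a log2 fold change of 0.45 (SE 0.31, limma adjusted p = 0.390), with shScr replicate 1 far below all other arrays, and 0.10 without that array (limma adjusted p = 0.602).

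**Figure D3:**
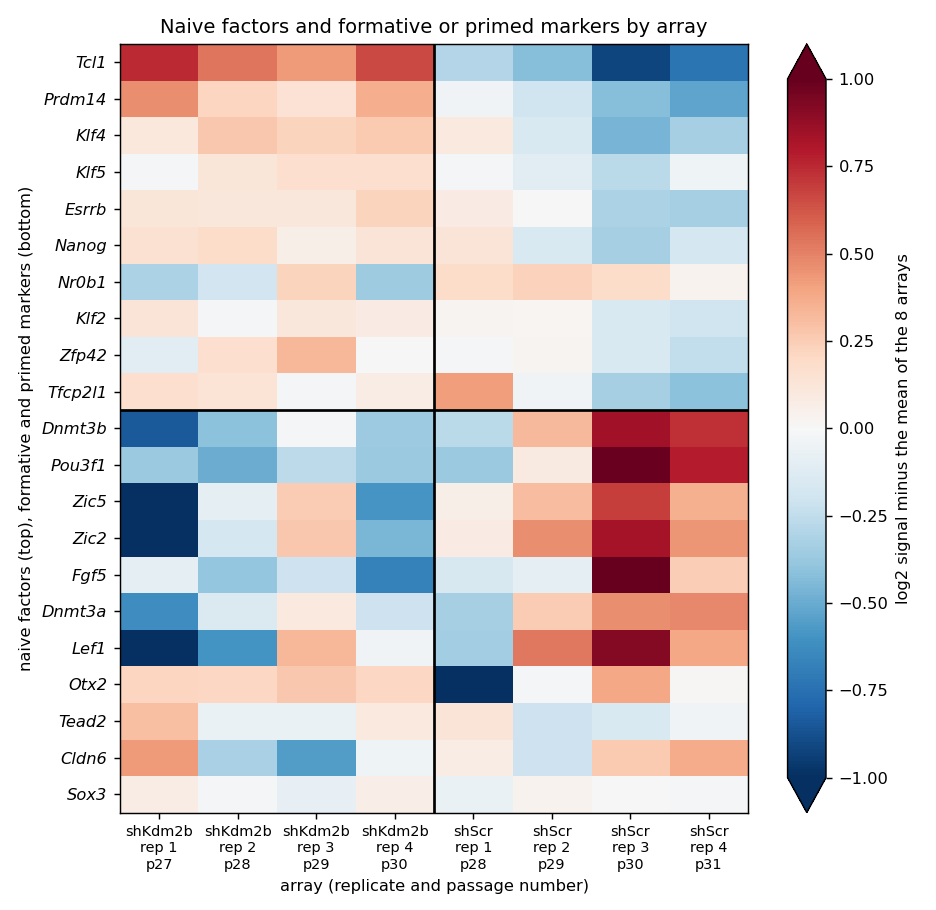
Log2 signal minus the mean of the 8 arrays (colour, red above and blue below, clipped at 1 in either direction) for the 10 naive factors (top) and 11 formative or primed markers (bottom) on the 4 shKdm2b arrays (left) and the 4 shScr arrays (right), with replicate and passage numbers. The control arrays differ among themselves, with replicates 3 and 4 low in naive factors and high in most formative and primed markers.

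The shScr arrays with the lower naive signal, replicates 3 and 4, are those of passages 30 and 31, and the shKdm2b arrays reach passage 30. Arrays of equal passage number can be set side by side for passages 28, 29 and 30, with 1 array per group. This sets shKdm2b replicates 2, 3 and 4 against shScr replicates 1, 2 and 3, and so crosses replicate numbers. Within each group passage rises with replicate number, and their parts in these differences cannot be told apart. At passage 28, 7 of the 10 factors were higher in shKdm2b, and at passages 29 and 30 it was 9. The share of all genes that were higher was not computed by passage. With all arrays it was 61.7%. Tcl1 was at 12.69 in shKdm2b and 11.87 in shScr at passage 28, at 12.59 in shKdm2b and 11.74 in shScr at passage 29, and at 12.82 in shKdm2b and 11.24 in shScr at passage 30. Its difference was thus 0.83, 0.85 and 1.58 on the log2 scale at passages 28, 29 and 30. Nanog differed by 0.06, 0.21 and 0.47, and Esrrb by 0.03, 0.12 and 0.53 at the same passages. For the arrays of passages 28 to 30, none of the 10 factors met the rule, but only 0.802% of all genes did.

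**Figure D4:**
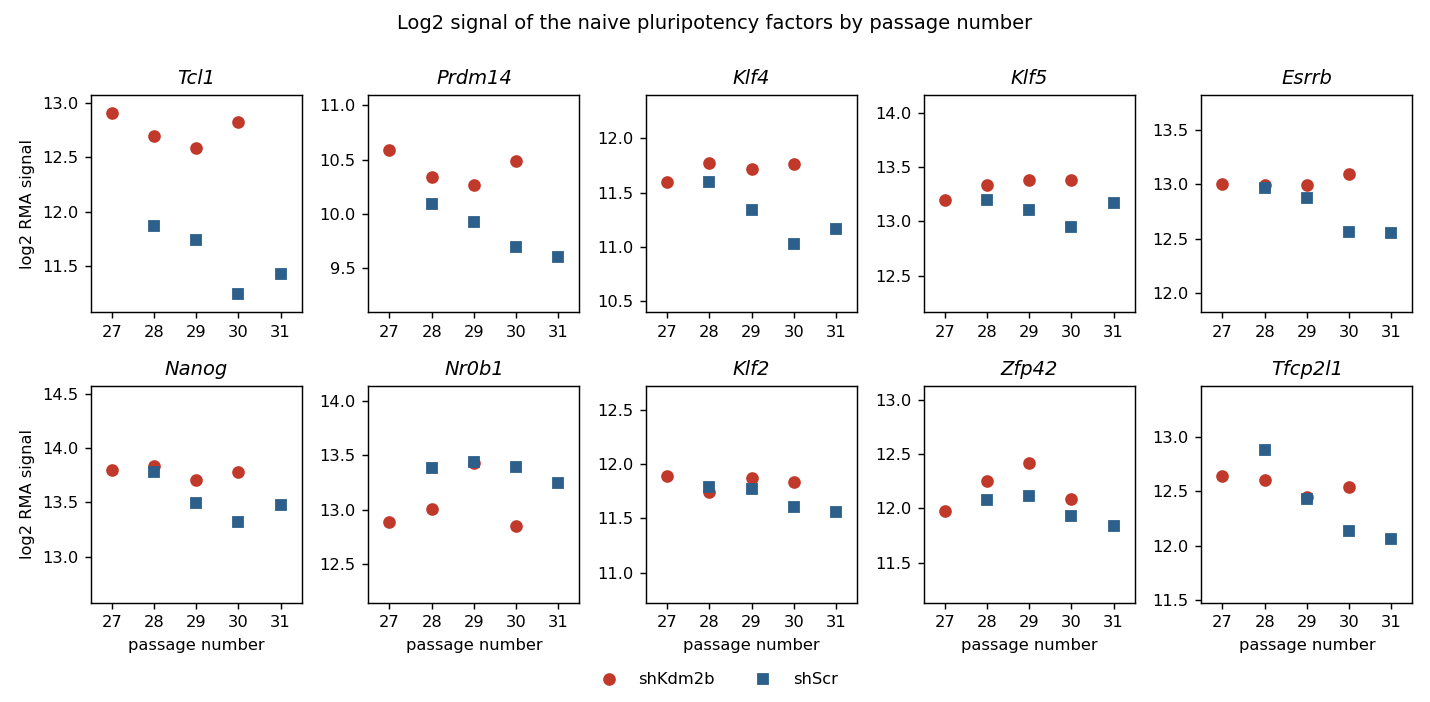
Log2 RMA signal (y axis, each panel spanning 2 log2 units) of the 10 naive factors against passage number (x axis) for the 4 shKdm2b arrays (red circles) and the 4 shScr arrays (blue squares). For Tcl1 every shKdm2b array lies above every shScr array, while for Nanog and Esrrb the difference is 0.06 and 0.03 at passage 28 and 0.47 and 0.53 at passage 30.

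Genes around the naive network were read from 8 further lists, of which 87 genes had a probe set of their own. Of the 87, 1 met the gene rule, against 2.85% of all genes. The same share stands beside the counts by that rule in each list below. The 1 gene was Tbx3, a T-box gene of the naive state (log2 fold change 0.82, SE 0.15, limma adjusted p = 0.0180). Its call was lost without shKdm2b replicate 2 or 4 or shScr replicate 2 or 4, at limma adjusted p = 0.0524 to 0.0608, and for passages 28 to 30 alone. Of 10 other genes of the naive state, 1 rose, none fell and 9 did not meet the rule, and their median log2 fold change was 0.14. Pecam1, a cell adhesion gene that marks naive ESCs, came near it (log2 fold change 0.57, SE 0.10, limma adjusted p = 0.0123), with 11.51, 11.55, 11.27 and 11.37 in shKdm2b replicates 1 to 4, and 11.01, 10.95, 10.65 and 10.82 in shScr replicates 1 to 4. It met the rule without shKdm2b replicate 3 or shScr replicate 1 or 2, with a log2 fold change of 0.60 to 0.62 (limma adjusted p = 0.00949 to 0.0297). The list was not uniform, since 5 of its 10 genes had a log2 fold change below 0, while 61.7% of all genes were above 0. Of these 5, Dppa3 and Gbx2 had the lowest at -0.51 (the more significant of 2 probe sets) and -0.52 (limma adjusted p = 0.0742 and 0.113). These 2 were picked after their values were seen. At an unadjusted p under 0.05, 3 of the 10 were higher and 4 lower, against 16.8% and 13.6% of all genes. In the blocked fit Tbx3, Pecam1 and Eras were higher and Fbxo15 and Spic lower at an adjusted p under 0.05, against 14.2% of all genes in either direction. Fbxo15 and Spic had log2 fold changes of -0.32 and -0.46 (limma adjusted p = 0.0443 and 0.0270 in that fit).

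Of 8 genes of the LIF and STAT3 pathway, none met the gene rule (median log2 fold change 0.17). Lifr, which encodes the LIF receptor, had a log2 signal of 11.39, 11.58, 11.62 and 11.58 in shKdm2b replicates 1 to 4, and 10.79, 11.21, 11.01 and 10.94 in shScr replicates 1 to 4. All knockdown arrays were above all controls, and the log2 fold change was 0.56 (SE 0.09, limma adjusted p = 0.0122), short of 1.5-fold. It passed that limit without shKdm2b replicate 1 (0.61, limma adjusted p = 0.0148) or shScr replicate 2 (0.63, limma adjusted p = 0.0114). Pim1, a kinase gene induced by STAT3, had a log2 fold change of 0.45 (SE 0.19, limma adjusted p = 0.165, and 0.0107 in the blocked fit). Of 8 core pluripotency and shared ESC genes none met the rule (median 0.11). Fgf4, whose product drives exit from the naive state, had a log2 fold change of 0.37 (SE 0.07, limma adjusted p = 0.0238), and Lin28a, an RNA binding protein gene that is raised in primed cells, one of -0.40 (SE 0.10, limma adjusted p = 0.0439). Pou5f1, which encodes OCT4 and was picked after its values were seen, had one of 0.03 (SE 0.05, limma adjusted p = 0.680).

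None of 9 repressors of the naive programme met the rule or had an adjusted p under 0.05 in limma, against 2.85% and 10.3% of all genes. At an unadjusted p under 0.05 there was also none, against 30.4% of all genes (median log2 fold change of the list 0.05). Tcf7l1, which encodes the repressor that Wnt signalling removes from genes such as Esrrb, had a log2 fold change of -0.17 (SE 0.10, limma adjusted p = 0.311), and Etv5, an ETS factor gene, one of 0.10 (SE 0.05, limma adjusted p = 0.268). None of 6 genes for partners of the factors met it either (median 0.02). Rlim, a gene for a ubiquitin ligase that marks REX1 for degradation, had a log2 fold change of -0.32 (SE 0.10, limma adjusted p = 0.0832, 0.0444 without shScr replicate 1 and 0.0647 to 0.194 without any other single array). Pnpt1, which encodes a mitochondrial RNA exonuclease that binds TCL1, had one of -0.19 (SE 0.07, limma adjusted p = 0.128).

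Relatives of the factors gave no further call by the gene rule. Of 14 other Klf genes, 2 had an adjusted p under 0.05 in limma, both higher in shKdm2b (5.75% of all genes were). These were Klf10 and Klf11, which encode transcription factors induced by TGF-beta, with log2 fold changes of 0.46 and 0.39 (SEs 0.11 and 0.07, limma adjusted p = 0.0336 and 0.0155), against 0.43, 0.22 and 0.15 for Klf4, Klf5 and Klf2. The limma adjusted p of Klf10 was 0.0614 to 0.0993 without any 1 array other than shKdm2b replicate 3 or shScr replicate 1. That of Klf11 was 0.0532 without shScr replicate 3. Of 21 relatives of the other factors, 2 were higher and 1 was lower at an adjusted p under 0.05, against 5.75% and 4.55% of all genes. Without shScr replicate 1 it was 1 of the 21 in either direction, against 9.29% of all genes. Prdm16, a gene of the same family as Prdm14, had a log2 fold change of 0.54 (SE 0.09, limma adjusted p = 0.0145) and met the rule without shKdm2b replicate 3 (0.61, limma adjusted p = 0.00561). Without shKdm2b replicate 2 the limma adjusted p of Prdm16 was 0.0524. Prdm10 had a log2 fold change of -0.24 (SE 0.06, limma adjusted p = 0.0433). The limma adjusted p of Prdm10 was 0.0479 without shKdm2b replicate 4 and 0.0545 to 0.116 without any other single array. Tcl1b1, a neighbour and relative of Tcl1 on chromosome 12 that is named because the count was small, had a log2 fold change of 0.24 (SE 0.06, limma adjusted p = 0.0456, and 0.0710 in the blocked fit), against 1.19 for Tcl1.

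The factors differ in the CpG content of their promoters. In the 250 bases upstream of the transcription start annotated by RefSeq (GRCm38.p6), which were read for 8 of the 10 factors and not for Klf5 and Prdm14, Klf4 held 32 CpG dinucleotides, Klf2 29, Tfcp2l1 16, Nr0b1 11, Zfp42 9 and Tcl1 7. The starts of Esrrb held 6 and 3, and those of Nanog 3 and 2. The median of all 32851 such windows was 6, and 4.58% of them held as many as Klf4 or more, against 46.3% for Tcl1. Beside these counts, the log2 fold change was 1.19 for Tcl1, 0.43 for Klf4, 0.28 for Esrrb and 0.26 for Nanog. It was 0.19 for Zfp42, 0.18 for Tfcp2l1, 0.15 for Klf2 and -0.32 for Nr0b1. The windows of Tcl1 and Klf4 printed above show how far the counts differ, and no relation between CpG content and change was tested.

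Short motifs were searched on both strands of the same windows. The octamer letters ATGCAAA were found in 3 of the 10 windows of the factors, those of both Nanog starts, which overlap, and that of Zfp42, against 4.12% of all windows. The SOX letters ACAATG were found in the 2 Nanog windows, against 10.7% of all. The letters CCACCC, which KLF proteins read, were found in 7 of the 10 windows, against 28.1% of all, and TTCNNNGAA, a STAT site, in 1, against 7.02%. The letters AAGGTCA, which ESRRB reads, were found in none, against 4.08%. A match of letters describes the window and does not show binding.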

How the data were processed

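Expression in 8 samples of E14 mouse ESCs was read on whole-transcript Affymetrix arrays (Mouse Gene ST), 1 per sample, and the labels assigned every sample to a group. The authors deposited log2 values made with RMA in oligo 1.18.1, which corrects background, gives all arrays a common distribution and summarises probes. Such values cannot show a shift shared by most transcripts, and they compress the changes of dim probe sets. The genome build behind the probe sets is not given in the sources used here. The array medians lay between 8.47 and 8.53.

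Of 35556 probe sets, 21789 name 1 gene in GEO's platform annotation, 1621 several and 12146 none. Symbols were compared with RefSeq (GRCm38.p6) through gene identifiers, of which 21698 were found there, and no symbol differed. limma 3.58.1 in R 4.3.3 (lmFit, then eBayes) was fitted to all probe sets with group as the only term, Benjamini-Hochberg adjusted over all of them, with no filter on low values. Standard errors and intervals are those of the moderated fit. The alternatives were the replicate number as a block, passage as a covariate or as a block for passages 28 to 30, a trended robust prior, array weights, brighter probe sets alone, probe sets naming 1 gene alone, centred arrays, repeated quantile normalization, and each array left out. A gene's groups were taken not to overlap where most of its own probe sets showed this. Differences among Klf2, Klf4 and Klf5 were tested with exact permutation. The gene lists were described by counts and medians, and from each further list every gene that met the rule and the 2 with the smallest p were named. The members and lists were chosen with earlier results of these data known. The pipeline was tested on simulated data with known changes. Figures were drawn with matplotlib 3.10.9.

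Replicate numbers are shared by the groups, whose samples were collected in parallel. After the group mean was removed, arrays sharing a number correlated at 0.118 to 0.355 and arrays of different numbers at -0.231 to 0.0747. The numbers therefore count as pairs. The methods state no block, and the fit without it is the one reported. Scanner intensities were not used here. The number of arrays limits the precision.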

Additional observations from a re-analysis of the deposited data

Results flagged for a closer look

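Among 54 sets of 4 arrays (the 10 naive factors, Kdm2b and the 16 named genes of the further lists, in each group), 2 had an array that stood apart from the other 3 by Dixon's test, which chance gives in about 5% of sets. Esrrb was at 13.10 in shKdm2b replicate 4, against 12.99 to 13.00 in the other knockdown arrays, a gap that is small on the log2 scale. Lifr was at 11.39 in shKdm2b replicate 1, against 11.58 to 11.62 in the other knockdown arrays.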

How the results depend on the processing

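The number of naive factors that met the gene rule (2) came to 0 for passages 28 to 30 alone, to 1 with passage as a covariate and to 1 with centred arrays, and ranged from 1 to 2 when 1 array was left out. The number with an adjusted p under 0.05 (2) came to 0 for passages 28 to 30 alone, to 4 with quantile normalization repeated on the probe sets naming 1 gene, and to 8 with array weights, where 27% of all genes passed, and ranged from 1 to 4 when 1 array was left out (4 without shScr replicate 1, and 1 without shKdm2b replicate 2 or 4 or shScr replicate 2, 3 or 4). The number whose groups did not overlap (5) came to 2 with centred arrays and ranged from 5 to 7 when 1 array was left out (7 without shKdm2b replicate 3 or shScr replicate 1). Of the further lists, 1 gene met the rule, but 5 did under the replicate block, and 0 to 5 when 1 array was left out (0 without shKdm2b replicate 2 or 4 or shScr replicate 4, 2 without shScr replicate 2, 3 without shKdm2b replicate 1, 4 without shScr replicate 1, and 5 without shKdm2b replicate 3). Of all genes, 2.85% met the rule in the main fit and 3.27% under the replicate block. The causes of these differences between settings were not tested. Of the fold changes of single naive factors under these alternatives, 160 kept their direction and their side of the rule, 10 lost a call (9 for Prdm14 and 1 for Tcl1, the last for passages 28 to 30 alone) and none changed its sign. In the fit with the replicate block, the calls on Tcl1 and Prdm14 held at limma adjusted p = 0.00557 and 0.0176, no other naive factor gained one, and the differences among Klf2, Klf4 and Klf5 had adjusted p = 0.375 to 0.625 by the exact sign-flip test, whose 4 pairs cannot reach the threshold.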
